A study of Homo sapiens with 18 samples.

Results

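The EGF family ligands and the ERBB receptors were described here as 10 genes in human fibroblast-like cells in which CDKN1A, KDM1A or SPP1 was knocked down with CRISPR. The set held 7 ligands (EPGN, EREG, AREG, BTC, HBEGF, TGFA and NRG1) and 3 receptors (EGFR, ERBB2 and ERBB3), of 35579 annotated genes to which transcripts were matched. The family was chosen by the values of EPGN in the CDKN1A and KDM1A groups, so EPGN is given without a test in every comparison between groups that holds either. Comparisons between guides of 1 group also use these values, but there EPGN was tested and counted among the 8 members. The whole family was put forward with earlier results of these data in view, and the tests on the other members are therefore no independent support. Of the 10 members, 8 were among the 13527 genes that passed the filter on low counts, which asked for about 10 counts in enough libraries. BTC and TGFA did not pass it.

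The series addressed which factors inside somatic cells mark their potential to become pluripotent, and it profiled poly(A)-selected bulk RNA from 18 libraries. All cells were hiF-T, a line derived from BJ skin fibroblasts that carries inducible hTERT, the catalytic subunit of telomerase, and all were given the genotype WT. The control group held 4 libraries, made with guides 1 and 2 of the backbone control and labelled as control guide. The knockdown groups held 4 libraries for CDKN1A (guides 1 and 2), 4 for KDM1A (guides 2 and 3) and 6 for SPP1 (guides 1, 2 and 3), with biological replicates 1 and 2 for each guide. CDKN1A encodes an inhibitor of cyclin-dependent kinases, KDM1A a histone lysine demethylase and SPP1 the secreted glycoprotein osteopontin. Everything rests on 1 cell line, the labels do not say whether the inducer of hTERT was present, and they do not say which kind of CRISPR effector was used. The labels do not say whether replicates were separate cultures, so p-values measure only the spread between these libraries.

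The library totals ran from 11907197 to 17016094 estimated counts. The targeted mRNA was at 50.7 to 75.0 CPM (counts scaled to the library total with TMM factors) in the KDM1A group against 110 to 125 in control, and at 275 to 435 against 540 to 695 for CDKN1A. SPP1 mRNA was at 21.7 to 63.0 CPM in the SPP1 group and 55.2 to 72.7 in control, so these groups overlapped: the library labelled SPP1 guide 3 replicate 1 was at 63.0 CPM and the one labelled SPP1 guide 2 replicate 2 at 55.2. SPP1 mRNA was above control in the CDKN1A (99.7 to 131) and KDM1A (126 to 135) groups. CDKN1A mRNA was below control in the KDM1A group (458 to 528) and overlapped it in the SPP1 group (411 to 543). KDM1A mRNA overlapped control in the CDKN1A and SPP1 groups. Of 12 fibroblast markers, 11 had a mean of at least 1 CPM in every group, but THY1, a surface marker of fibroblasts, averaged 0.0849 to 0.358 CPM. The summed level of the 12 ran from 35600 to 38100 CPM in control and was lower without overlap in the CDKN1A group (31300 to 34200). It overlapped control in the KDM1A (31500 to 38100) and SPP1 (30900 to 37600) groups. In bulk RNA, fewer cells of a type and less RNA per cell cannot be told apart.

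EGF family ligands are made as membrane-anchored precursors. Proteases of the ADAM family, or soluble splice forms in the case of neuregulins, release the EGF-like domain, which binds ERBB receptors on the same or nearby cells. AREG, EPGN and TGFA bind EGFR, HBEGF, EREG and BTC bind EGFR and ERBB4, and NRG1 binds ERBB3 and ERBB4. ERBB2 has no known ligand of its own and acts as a partner in receptor pairs, and the receptors signal through the RAS and ERK cascade. In skin these ligands are known for their part in keratinocyte growth and in exchange between fibroblasts and epithelium.

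EPGN, EREG, AREG and BTC lie together on chromosome 4. In GRCh38 and GENCODE release 29, EPGN lies at chr4:74308473-74315307, EREG at chr4:74365143-74388751 and AREG at chr4:74445134-74455009, all on the forward strand, and BTC lies at chr4:74744759-74794686 on the reverse strand. The start of EREG is 56.7 kb and that of AREG 136.7 kb downstream of the EPGN start. The 250 bases before the start of EPGN, EREG and AREG are shown because these neighbours had their highest levels in the same group of libraries. They are from RefSeq on GRCh38.p14, 5′ to 3′ on the forward strand (EPGN chr4:74308220-74308469, EREG chr4:74364895-74365144, AREG chr4:74444886-74445135). Capitals mark the core promoter element TATAAA, the element CCAAT known to bind the factor NF-Y, the half-site TGACG of the cyclic AMP response element, which is contained in the full site TGACGTCA, and the element GGGCGG known to bind Sp proteins, each searched on both strands, so that a match on the other strand reads as its reverse complement.
EPGN: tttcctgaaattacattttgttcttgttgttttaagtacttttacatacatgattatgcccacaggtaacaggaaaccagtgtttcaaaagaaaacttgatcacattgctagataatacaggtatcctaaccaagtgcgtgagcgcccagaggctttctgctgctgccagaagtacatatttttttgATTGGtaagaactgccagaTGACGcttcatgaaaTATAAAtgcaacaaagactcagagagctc
EREG: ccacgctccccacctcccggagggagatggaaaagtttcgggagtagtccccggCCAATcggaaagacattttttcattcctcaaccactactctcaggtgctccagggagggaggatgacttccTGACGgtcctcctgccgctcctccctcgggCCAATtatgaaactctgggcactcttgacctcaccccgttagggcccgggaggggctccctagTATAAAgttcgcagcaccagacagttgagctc
AREG: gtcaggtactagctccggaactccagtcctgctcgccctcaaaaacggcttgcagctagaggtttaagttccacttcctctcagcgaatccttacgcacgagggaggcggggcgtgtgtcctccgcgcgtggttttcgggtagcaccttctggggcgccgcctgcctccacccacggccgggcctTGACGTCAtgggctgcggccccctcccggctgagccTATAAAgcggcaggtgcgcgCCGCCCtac
Each of these 3 windows held TATAAA, with its first base 29, 32 and 29 bases before the start of EPGN, EREG and AREG, against 10.7% of 35116 promoter windows of the same length. Each also held TGACG, found in 21.2% of all windows, while the full TGACGTCA was in the AREG window alone, 65 bases before the start, and in 1.65% of all windows. CCAAT, found in 32% of windows, was in those of EPGN and EREG, and GGGCGG, found in 42.6%, was in that of AREG. The AP-1 site TGANTCA, found in 6.57%, had no match in these windows. GC content was 38.0% in the EPGN window, 58.0% in that of EREG and 65.2% in that of AREG, with a median of 58.0% over all windows. The window of BTC, the other ligand of the cluster, held none of these motifs. It begins at chr4:74794474, so part of it lies inside BTC as placed by GENCODE and not before its start. These matches describe letters and not binding.

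Levels per length were compared in TPM, which scales for transcript length and library total. In control cells the receptor EGFR had the highest mean level (41.2 TPM ± 4.11, SD, n = 4), followed by HBEGF at 36.8 ± 4.23, NRG1 at 22.1 ± 3.67, EREG at 13.1 ± 1.54 and ERBB2 at 10.9 ± 1.4. EPGN at 6.52 TPM ± 2.02, AREG at 5.28 ± 0.713 and ERBB3 at 2.97 ± 0.947 were lower, and TGFA (0.19) and BTC (0.164) were near 0. The control ranges of EGFR and HBEGF overlapped, as did those of EREG and ERBB2, of EPGN and AREG, and of TGFA and BTC. Within each control library EGFR was above HBEGF and EREG above ERBB2. The order of EPGN and AREG, and that of TGFA and BTC, changed between control libraries. The order differed in the KDM1A group, where EREG averaged 36.4 TPM ± 4.61 (n = 4), level with HBEGF at 36.3 ± 3.83 and EGFR at 38.0 ± 6.71. EPGN averaged 26.7 TPM ± 0.815 there, within the range of NRG1 (21.4 to 34.0). In the SPP1 group EPGN averaged 15.8 TPM ± 5.33 (n = 6) and in the CDKN1A group 10.6 ± 1.89 (n = 4).

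**Figure D1:**
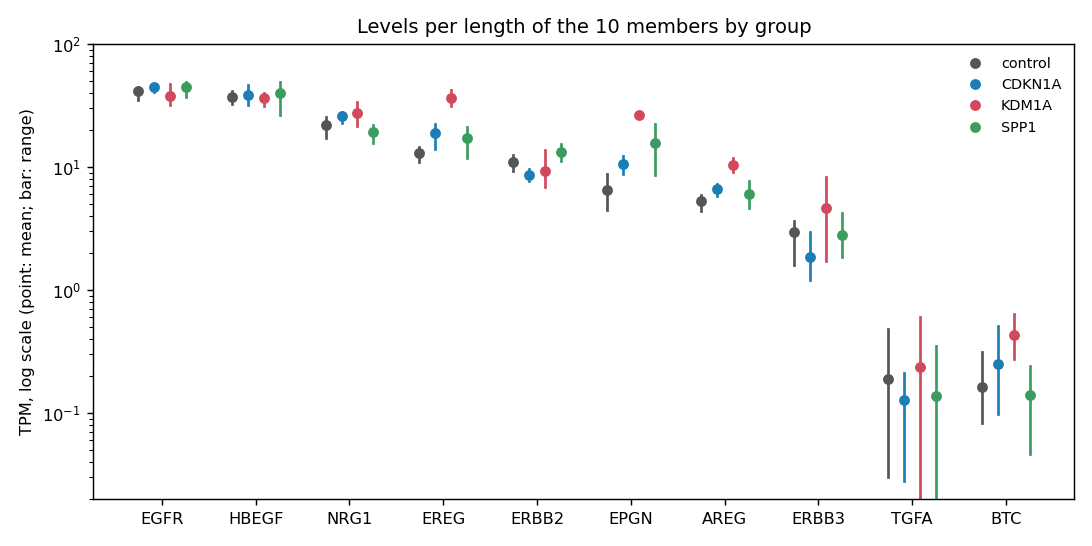
Levels per length of the 10 members (TPM, log axis) in the control, CDKN1A, KDM1A and SPP1 groups, with points for group means and bars from the lowest to the highest library; bars that touch the lower edge hold a library at 0. EREG and EPGN in the KDM1A group stand at the level of HBEGF and NRG1, and BTC and TGFA stay under 1 TPM.

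In the KDM1A group 2 ligands of the chromosome 4 cluster, EREG and AREG, rose and the receptor ERBB2 fell, and EPGN had its highest values. Of the 7 members tested in that comparison, 3 were called at an adjusted p under 0.05 by edgeR's quasi-likelihood test with Benjamini-Hochberg adjustment over all genes, 2 higher and 1 lower. Over all 13527 genes, 9.05% were called, 5.33% higher and 3.72% lower. The median log2 fold change of these 7 members was 0.34, beside -0.01 over all genes. The count was 5 with DESeq2 and 5 without KDM1A guide 3 replicate 2, the lowest of the KDM1A libraries in NRG1 and ERBB3.

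**Figure D2:**
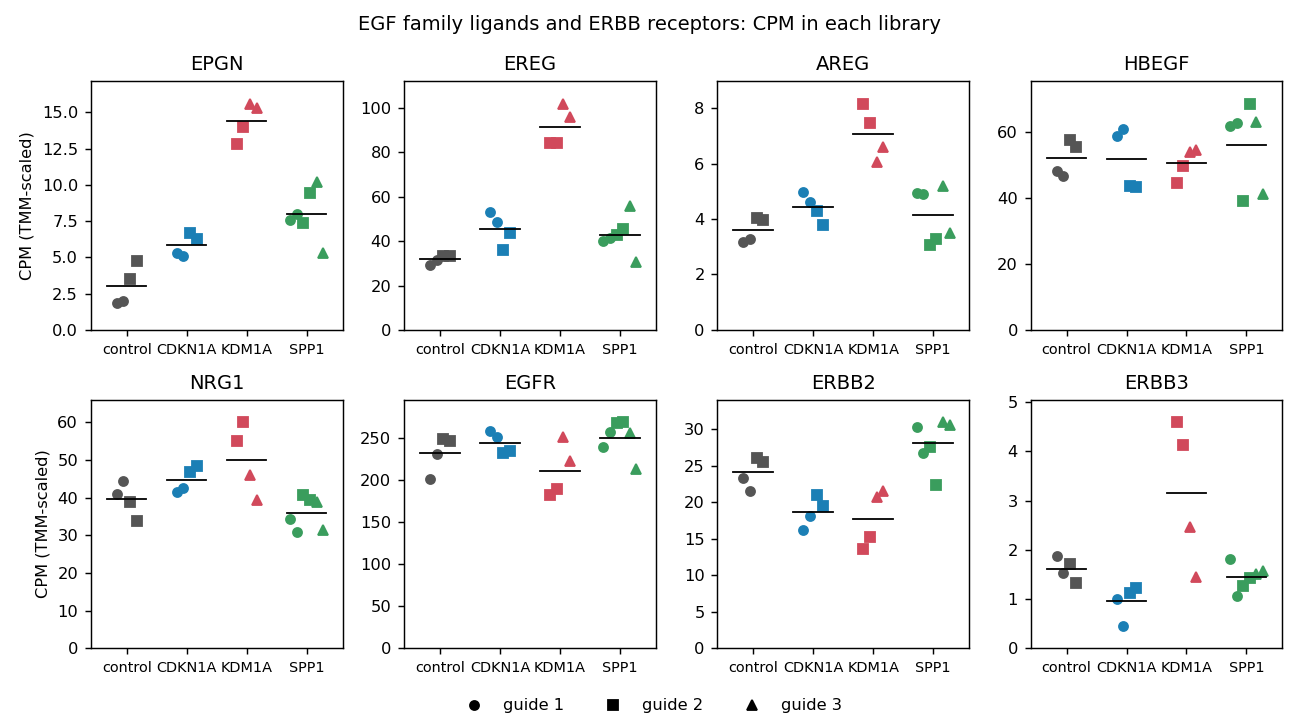
CPM (TMM-scaled, linear axis from 0) of the 8 tested members in each of the 18 libraries, with the guide as the point shape and the group mean as a line. All KDM1A libraries lie above all others for EPGN, EREG and AREG, while HBEGF and EGFR overlap between groups.

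EPGN encodes epigen, a ligand of EGFR. Its control libraries were at 1.87 and 2.02 CPM with guide 1 and at 3.5 and 4.74 with guide 2. The KDM1A libraries were at 12.8 and 14.0 CPM with guide 2 and at 15.6 and 15.3 with guide 3. The lowest KDM1A library stood above every library of the other 3 groups. The fitted difference from control was 2.26 ± 0.22 on the log2 scale (SE), or 4.79-fold, given without a test because these values chose the family. It was 1.82 without control guide 1 and 2.9 without control guide 2. The transcript EPGN-202 held 90% of the EPGN counts, and it averaged 13.1 CPM in the KDM1A group against 2.68 in control.

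EREG encodes epiregulin, a ligand of EGFR and ERBB4. Its control libraries were at 29.2, 31.4, 33.4 and 33.2 CPM, and its KDM1A libraries at 84.4, 84.2, 102 and 95.8. The lowest KDM1A library was above every other library of the series, and the replicates of each guide lay close together. EREG rose 2.88-fold in the KDM1A group (log2 1.52 ± 0.13, SE; adjusted p = 6.08e-07, edgeR quasi-likelihood test), in 4 of 4 libraries. Under 19 other settings the log2 value ran from 1.41 to 1.64, and EREG was called in all 19. EREG-201 held 95.9% of its counts.

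AREG encodes amphiregulin, a ligand of EGFR. Its control libraries were at 3.18, 3.27, 4.03 and 3.96 CPM, and its KDM1A libraries at 8.16, 7.48, 6.04 and 6.6. All 4 KDM1A libraries lay above every library of the other groups, of which the highest was at 5.18 CPM. AREG rose 1.95-fold (log2 0.97 ± 0.17, SE; adjusted p = 0.00115, edgeR), and its adjusted p stayed between 1.24e-05 and 0.0447 under 19 other settings. AREG-201 held 99.8% of its counts.

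BTC encodes betacellulin, the fourth ligand of the cluster, and its counts were very low. The estimated counts were 4, 7, 2 and 2 in control, 13, 13, 7 and 7 in the KDM1A group and 4, 4, 3 and 2 in the CDKN1A group. In the SPP1 group they ran from 1 to 3. The KDM1A libraries held the highest counts, and only the tied 7 touched control. Fitted without the filter on low counts, BTC differed between KDM1A and control by 1.37 ± 0.48 on the log2 scale (SE), with an edgeR adjusted p of 0.132. In the same fit BTC was higher in the KDM1A group than in the SPP1 group by 2.06 (adjusted p = 0.00531) and lower in the CDKN1A group than in the KDM1A group, at -1.61 (0.0459). BTC-201 held 95.7% of the BTC counts. TGFA encodes transforming growth factor alpha and held at most 6 counts in any library, which left differences undetectable at this depth, and TGFA-201 held 71.6% of them, with TGFA-207, TGFA-202 and TGFA-204 at 8.18, 7.32 and 6.99%.

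HBEGF encodes a heparin-binding ligand of EGFR and ERBB4 and was the highest of the ligands in control. Control libraries were at 48.1, 46.7, 57.5 and 55.4 CPM and KDM1A libraries at 44.4, 49.5, 53.8 and 54.4, so the groups overlapped. The log2 difference was -0.04, with a 95% interval from -0.34 to 0.27 (edgeR adjusted p = 0.921). This interval does not reach the log2 changes of EREG or AREG. HBEGF-201 held 98.6% of its counts. Unlike the ligands of the cluster, HBEGF lies on chromosome 5 (chr5:140332843-140346631).

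NRG1 encodes neuregulin 1. Its KDM1A libraries were at 55.0 and 60.0 CPM with guide 2 and at 46.0 and 39.3 with guide 3, against 33.9 to 44.4 in control. The guide 2 libraries were the highest of the series, and a guide 3 library fell inside the control range. The log2 difference from control was 0.34 ± 0.12 (SE) and was not called by edgeR (adjusted p = 0.0788), while DESeq2 called it (adjusted p = 0.0479). Without KDM1A guide 3 replicate 2 the value was 0.45 and the edgeR adjusted p was 0.0155. NRG1-202 held 68.3% of its counts, NRG1-212 10.2%, NRG1-203 8.12% and NRG1-216 5.11%. Against control, the KDM1A libraries were higher without overlap in NRG1-212 (4.35 to 8.46 CPM against 2.18 to 4.18) and NRG1-216 (3.18 to 4.03 against 0.0666 to 2.14), and overlapped in NRG1-202 (23.6 to 41.0 against 25.8 to 33.5) and NRG1-203 (2.97 to 5.56 against 2.15 to 7.02).

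ERBB2 encodes the receptor without a known ligand. Its control libraries were at 23.4, 21.6, 26.1 and 25.6 CPM, and its KDM1A libraries at 13.6 and 15.2 with guide 2 and at 20.7 and 21.5 with guide 3. All KDM1A libraries were below all control libraries, but those of guide 3 came within 1 CPM of the lowest control. ERBB2 fell by 0.44 on the log2 scale (SE 0.13, to 73.6% of control; edgeR adjusted p = 0.0386). The call was lost with only the groups compared in the fit (0.0821) and with an offset for transcript length, which gave -0.23 (0.504). Without KDM1A guide 2 the value was -0.19 (0.454), without control guide 1 -0.54 (0.0809) and without control guide 2 -0.33 (0.242), none of them called. The call was also lost without control guide 1 replicate 1, control guide 2 replicate 1 or 2, or KDM1A guide 2 replicate 1 or 2 (0.0674 to 0.135). ERBB2 was called in 9 of 19 other settings. ERBB2-201 held 50.7% of the counts, ERBB2-203 15.9%, ERBB2-218 10.7%, ERBB2-214 7.76% and ERBB2-206 5.73%. ERBB2 overlaps PGAP3 and MIEN1 on the opposite strand, at 2.71 to 6.46 and 22 to 36.6 CPM, and no label or header gives the strand setting of the counting.

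ERBB3 encodes a receptor for neuregulins with little kinase activity of its own. Its control libraries were at 1.87, 1.53, 1.72 and 1.32 CPM, and its KDM1A libraries at 4.59 and 4.12 with guide 2 and at 2.47 and 1.44 with guide 3. The guide 2 libraries stood apart from all others, while a guide 3 library lay inside the control range. The log2 difference of 0.96 ± 0.3 (SE) was not called (edgeR adjusted p = 0.0544; DESeq2 0.0405), and without KDM1A guide 3 replicate 2 it was 1.21 (0.00759). ERBB3 counts lay mostly on short transcripts: ERBB3-213 held 34.5% and ERBB3-202 30.3%, while ERBB3-201 held 8.08% and ERBB3-217 6.22%. It shares its strand with the overlapping gene AC034102.2 (0 to 5.89 CPM). Its estimated counts, summed over its transcripts, were whole in 0 of 18 libraries (tolerance 0.001), so some reads were shared with transcripts outside this sum. The sums of EREG, NRG1 and ERBB2 were also whole in 0 of 18 libraries.

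EGFR encodes the receptor shared by most of these ligands. Its control libraries were at 202, 231, 249 and 247 CPM and its KDM1A libraries at 182 and 189 with guide 2 and at 251 and 223 with guide 3. The guide 2 libraries were below all control libraries and the guide 3 libraries were not. The log2 difference was -0.14 with a 95% interval from -0.32 to 0.04 (edgeR adjusted p = 0.41). EGFR-201 held 96.7% of its counts.

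**Figure D3:**
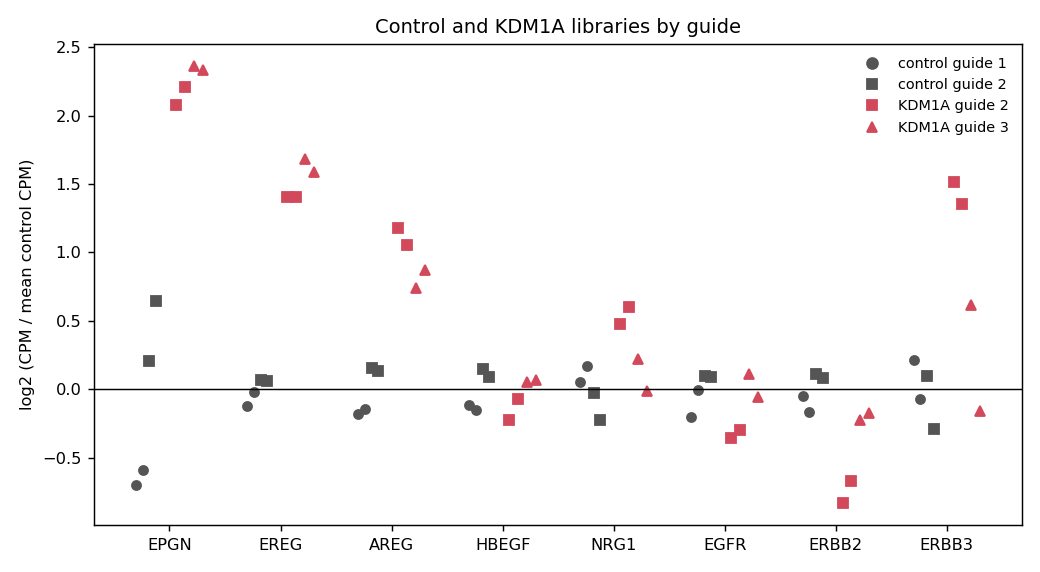
Each control and KDM1A library as the log2 ratio of its CPM to the mean control CPM of that gene, with the guide as the point shape. Both KDM1A guides lie high for EPGN, EREG and AREG, and the guides separate for NRG1, EGFR, ERBB2 and ERBB3.

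The KDM1A guides differed in the receptors and in NRG1. Between guide 3 and guide 2, 4 of 8 members were called (edgeR, 1 coefficient per guide), against 6.15% of all genes. ERBB2 was higher with guide 3 by 0.55 ± 0.11 on the log2 scale (SE; adjusted p = 0.00718) and EGFR by 0.35 ± 0.08 (0.0231). NRG1 differed by -0.43 ± 0.1 (0.0197) and ERBB3 by -1.16 ± 0.32 (0.0458), both lower with guide 3. EPGN (0.21), EREG (0.23) and AREG (-0.3) were not called, with 95% intervals from -0.18 to 0.6, -0.08 to 0.54 and -0.62 to 0.01. KDM1A mRNA was at 73.2 and 75.0 CPM with guide 2 and at 50.7 and 52.0 with guide 3, and the part of this in the guide differences was not tested. Each guide has 2 libraries: the count of 4 became 0 with the length offset and 0, 1, 2 and 1 without KDM1A guide 2 replicate 1, guide 2 replicate 2, guide 3 replicate 1 and guide 3 replicate 2.

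In the SPP1 group the ligands EPGN and EREG rose. Of 8 members tested, 2 were called, both higher, against 5.46% of all genes (2.4% higher and 3.06% lower). The median log2 fold change of the 8 members was 0.16, beside 0.0 over all genes. This comparison and the one above share their control libraries.

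EPGN ran from 5.33 to 10.2 CPM over the 6 SPP1 libraries, with a median of 7.78. Its lowest SPP1 library stood above the highest control library, at 4.74 CPM. EPGN rose 2.65-fold (log2 1.41 ± 0.21, SE; edgeR adjusted p = 0.00239), in 6 of 6 libraries. The comparisons with control in which EPGN was left untested use the same control values, so this test is no independent support. The value was 0.96 with an adjusted p of 0.0717 without control guide 1, and 1.33 (0.00585) without the library labelled SPP1 guide 3 replicate 1. Replicates of guide 3 differed from each other more than the guides did, at 10.2 and 5.33 CPM. SPP1 mRNA was at 63.0 CPM in the first of these libraries and at 21.7, the lowest of the group, in the second. EREG was at 55.7 and 30.8 CPM in them. Within each SPP1 guide, the replicate with more SPP1 mRNA had more EPGN and more EREG. The part of SPP1 mRNA in these values was not tested.

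EREG ran from 30.8 to 55.7 CPM in the SPP1 group, with a median of 42.2, and 5 of 6 libraries were above the highest control library. The remaining one, guide 3 replicate 2 at 30.8 CPM, fell inside the control range. EREG rose 1.35-fold (log2 0.43 ± 0.12, SE; edgeR adjusted p = 0.0485), close to the threshold. The call held in 6 of 22 other settings, and it was lost (0.0531 to 0.138) without any single library except SPP1 guide 3 replicate 2, and with a replicate block (0.0601). AREG ran from 3.06 to 5.18 CPM and overlapped control, with a log2 difference of 0.21 and a 95% interval from -0.11 to 0.53 (adjusted p = 0.499). HBEGF (0.11), NRG1 (-0.14), EGFR (0.11), ERBB2 (0.22) and ERBB3 (-0.16) were not called, with edgeR adjusted p-values from 0.296 to 0.824.

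In the CDKN1A group no member was called by edgeR. The count was 0 of 7 tested members, against 2.0% of all genes (1.09% higher and 0.917% lower). At an unadjusted p under 0.05 it was 3, and with DESeq2 it was 1. Without CDKN1A guide 2 replicate 1 edgeR called 1 member, EREG. The median log2 fold change was 0.07, beside 0.0 over all genes, and the control libraries were again the same.

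EPGN was at 5.3 and 5.12 CPM with CDKN1A guide 1 and at 6.7 and 6.24 with guide 2. All 4 libraries lay above the 4 control libraries. The difference of 0.95 ± 0.23 on the log2 scale (SE), or 1.93-fold, is given without a test, and it was 0.51 without control guide 1, 1.59 without control guide 2 and 0.66 with the length offset. EREG was at 53.2, 48.5, 36.1 and 43.6 CPM, also above all control libraries. Its log2 difference was 0.51 ± 0.13 (SE), with an adjusted p of 0.0521 by edgeR and 0.009 by DESeq2. AREG, at 3.8 to 4.99 CPM, differed by 0.3 with a 95% interval from -0.05 to 0.64 (edgeR adjusted p = 0.422).

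ERBB2 was at 16.2, 18.2, 21.0 and 19.5 CPM in the CDKN1A group, below all control libraries. Its log2 difference was -0.37 ± 0.13 (SE; edgeR adjusted p = 0.148). ERBB3 was at 1.01, 0.454, 1.13 and 1.22 CPM, also below all control libraries, with a difference of -0.77 ± 0.34 (0.264). HBEGF was at 58.7 and 60.9 CPM with guide 1 and at 43.7 and 43.3 with guide 2, above and below the control libraries, and its log2 difference from control was -0.01 with a 95% interval from -0.31 to 0.3. NRG1 (0.18) and EGFR (0.07) were not called, with edgeR adjusted p-values of 0.495 and 0.761.

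**Figure D4:**
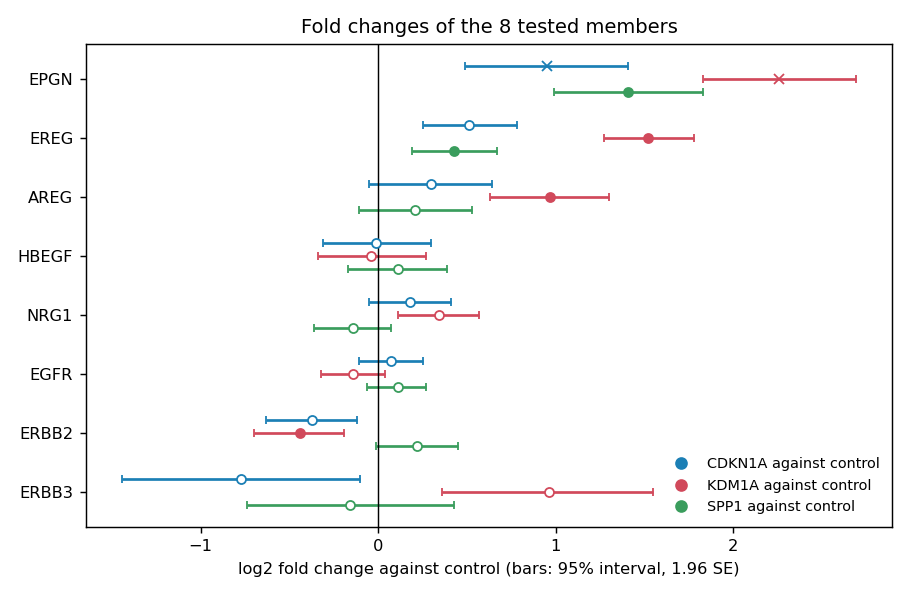
Log2 fold changes against control of the 8 tested members in the 3 knockdown groups, with bars for the 95% interval; filled points were called, open points were not, and crosses mark EPGN where it was not tested. For EPGN, EREG and AREG the KDM1A value (2.26, 1.52 and 0.97) lies farthest to the right of the 3 comparisons of that gene. The value of EPGN in the SPP1 group (1.41) lies to the right of AREG in the KDM1A group, and the 3 comparisons share the control libraries.

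Set against each other, the KDM1A group had the highest ligands of the cluster. Between KDM1A and SPP1, 5 of 7 tested members were called (11.9% of all genes). EREG was 2.13-fold higher in the KDM1A group (log2 1.09 ± 0.12, SE; edgeR adjusted p = 5.75e-06) and AREG 1.69-fold higher (0.76 ± 0.15; 0.00262). NRG1 (log2 0.48; adjusted p = 0.00613) and ERBB3 (1.11; 0.0127) were higher and ERBB2 (-0.66; 0.00123) lower. EPGN was higher by 0.85 ± 0.18, given without a test. Without KDM1A guide 2 the count was 1, with EREG called and AREG (0.125), NRG1 (0.317), ERBB2 (0.0809) and ERBB3 (0.563) not called, and ERBB3 was also lost without either library of that guide alone and with the length offset (0.72; 0.303).

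Between CDKN1A and KDM1A, 3 of 7 tested members were called (14.9% of all genes), and all were lower in the CDKN1A group. EREG was at 49.6% of its KDM1A level (log2 -1.01 ± 0.13, SE; edgeR adjusted p = 3.33e-05), AREG at 62.8% (-0.67 ± 0.17; 0.00988) and ERBB3 at 30.3% (-1.72 ± 0.32; 0.00121). The ranges of these 3 genes did not overlap between the groups. AREG (0.145) and ERBB3 (0.066) were not called without KDM1A guide 2, AREG (0.146) was not called without CDKN1A guide 2, and ERBB3 (-1.33; 0.0712) was not called with the length offset. EPGN differed by -1.31 ± 0.2, given without a test.

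Between CDKN1A and SPP1, 1 of 7 tested members was called (12% of all genes). ERBB2 was at 66.4% of its SPP1 level in the CDKN1A group (log2 -0.59 ± 0.12, SE; edgeR adjusted p = 0.00351), and every CDKN1A library was below every SPP1 library. The call was lost without CDKN1A guide 1 (0.0743). EREG differed by 0.08 with a 95% interval from -0.15 to 0.32.

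Between guides of the other groups no member was called. By edgeR, 0 of 8 members were called between CDKN1A guides (1.28% of all genes), between SPP1 guide 1 and the other guides (3.9%) and between control guides (1.34%). At an unadjusted p under 0.05 the counts were 2, 2 and 3, and with DESeq2 0, 0 and 0. Without SPP1 guide 3 replicate 1 the SPP1 count was 1. EPGN showed the widest gap between control guides, 1.07 ± 0.29 on the log2 scale (SE; adjusted p = 0.085), and it was called without the filter on low counts (0.00114). The CDKN1A difference of EPGN was of the same size.

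The neighbours of EPGN were read in the same fit. Of 40 annotated genes that start within 1000 kb of the EPGN start, 9 were tested. Beside EPGN, EREG and AREG these were MTHFD2L, which encodes a mitochondrial enzyme of folate metabolism and ends 5.4 kb before EPGN, the chemokines CXCL8, CXCL1, CXCL3 and CXCL2, and AFP. MTHFD2L was at 16.3, 14.9, 18.1 and 15.9 CPM in the KDM1A group against 13.7, 11.9, 12.6 and 12.7 in control, without overlap. It rose by 0.36 ± 0.09 on the log2 scale (SE; edgeR adjusted p = 0.0118, called in 15 of 19 other settings), a smaller value than those of the ligands. The chemokines had KDM1A values from -0.38 to 0.4, and neither they nor AFP (-0.24) were called in any of the 3 comparisons with control, with adjusted p-values from 0.125 to 0.785.

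**Figure D5:**
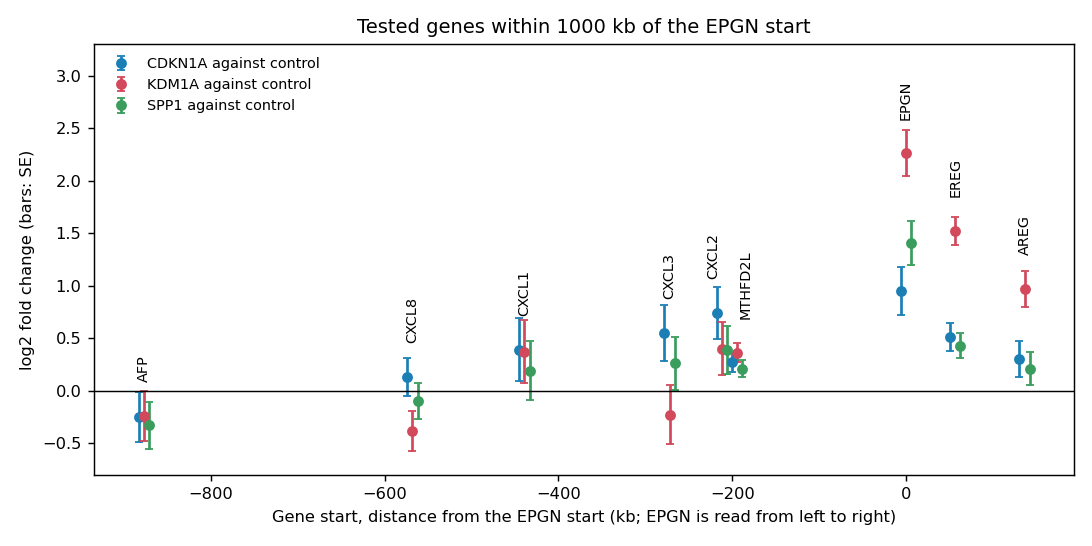
Log2 fold changes against control (bars, SE) of the 9 tested genes within 1000 kb of the EPGN start, by the distance of their start from that of EPGN in kb. The KDM1A values are 2.26 at EPGN, 1.52 at EREG and 0.97 at AREG, and between -0.38 and 0.4 upstream of EPGN.

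The profile of EREG over the 18 libraries was among the closest to that of EPGN. Likeness was measured as the root-mean-square difference of mean-centred log2 CPM over 18 libraries, among 11494 genes. The closest were KCTD4 (0.4), ANK3 (0.44), SEMA3A (0.45), EREG (0.48, rank 4) and LRRC17 (0.49), and a profile without any change would have 0.84. AREG had rank 49 (0.62). LRRC17 averaged 11.8 CPM in the KDM1A group and 2.69 in control, and ANK3 18.7 and 4.88. These libraries share their guides and group means, and the values are a description.

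Of the 5 listed family genes outside the 10 members, 3 were tested. ERBB4, the receptor for neuregulins, EREG, HBEGF and BTC, was at 2.69, 2.99, 2.25 and 1.82 CPM in the KDM1A group against 0.829, 0.975, 1.12 and 1.48 in control, without overlap. It rose 2.22-fold (log2 1.15 ± 0.25, SE; edgeR adjusted p = 0.00572), and the call was lost with the length offset and without control guide 1 or KDM1A guide 2. EGF, the founding ligand, averaged 2.25 CPM in the KDM1A group and 2.68 in control and was not called in any comparison with control.

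Genes that process the ligands or act below the receptors were counted from lists. In the KDM1A group, where 9.05% of all genes were called, the counts were 1 higher and 0 lower of 12 shedding genes (median log2 fold -0.04), 1 and 1 of 16 genes that dampen or internalise receptors (-0.01), 1 and 0 of 22 adaptor and ERK cascade genes (-0.01), and 2 and 0 of 16 genes known to be induced by ERK (0.14). DESeq2 called 2, 2, 1 and 4 of them, and the ERK-induced count ran from 0 to 9 over the settings. ADAM15, a membrane protease, rose by 0.26 on the log2 scale (edgeR adjusted p = 0.00612), LRIG3, of a family of receptor regulators, by 0.57 (0.00644) and STAT3, a transcription factor activated at receptors, by 0.25 (0.00503). SPRED3, an inhibitor of the ERK cascade, rose by 0.44 (0.00235) and PHLDA1 by 0.4 (0.018), while SOCS4 fell by 0.24 (0.0263). The SOCS4 call was lost without 5 of 8 single libraries and that of PHLDA1 without either replicate of KDM1A guide 3. None of these 6 genes was called without control guide 1, and LRIG3, STAT3 and SOCS4 were called neither with the length offset nor without KDM1A guide 2.

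In the SPP1 group 4 of the 16 ERK-induced genes rose and 1 fell (median log2 fold 0.15), beside 2.4% and 3.06% of all genes. The count ran from 0 to 6 over the settings. DUSP5 and DUSP4, phosphatases that act on ERK kinases, rose by 0.62 (edgeR adjusted p = 0.00718) and 0.5 (0.00801), PHLDA1 by 0.49 (0.00718) and SPRY2, a feedback inhibitor, by 0.4 (0.0164). EGR1, an immediate early transcription factor, moved the other way and fell by 0.59 (0.021). Of these, SPRY2 was not called without control guide 1 replicate 1, nor EGR1 without either replicate of control guide 1, and none of these genes was called without both. Of the shedding genes ADAM9 rose by 0.2 (0.0247) and RHBDF2 and ADAM19 fell by 0.52 (0.0067) and 0.7 (0.0175), and of the dampening genes SOCS5 rose by 0.58 (0.00703). ADAM9 and ADAM19 were not called without either replicate of control guide 1, nor ADAM9 without SPP1 guide 2 replicate 1. None of 22 adaptor and ERK cascade genes was called by edgeR or DESeq2, and 4 had an unadjusted p under 0.05.

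In the CDKN1A group the adaptor SH3KBP1, which takes part in receptor internalisation, rose by 0.31 on the log2 scale (edgeR adjusted p = 0.0243), a call lost without 5 of 8 single libraries. No shedding, adaptor or ERK-induced gene was called by edgeR, in a comparison where 2.0% of all genes were. At an unadjusted p under 0.05 there were 3 of 12, 2 of 22 and 5 of 16, and DESeq2 called 0, 0 and 1.

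Markers of epithelial cells, which are known to make EGF family ligands, were looked at beside these results. The summed level of 12 keratinocyte markers ran from 63.4 to 72.6 CPM in control, 61.9 to 65.4 in CDKN1A, 71.0 to 80.1 in KDM1A and 60.8 to 81.2 in SPP1, most of it KRT10 (53.0 to 60.5 CPM on average). KRT1 was at 0 in every library and KRT5 at 0 in the control, KDM1A and SPP1 groups. KRT15 averaged 8.92 CPM in the KDM1A group and 3.8 in control and rose by 1.23 on the log2 scale (edgeR adjusted p = 0.000111). It was the 1 called of 6 keratinocyte markers tested, with a median log2 fold of 0.19 over the 6. Of 11 fibroblast markers tested, PDGFRB alone was called in the KDM1A group, higher by 0.51 (edgeR adjusted p = 0.0334, called in 11 of 19 other settings). In the CDKN1A group edgeR called no fibroblast marker (median log2 fold -0.22). There 6 had an unadjusted p under 0.05, and DESeq2 called 2. The part of these markers in the ligand results was not tested. Markers of melanocytes summed to 1.86 to 3.71 CPM over all libraries. Endothelial markers, nearly all TEK, summed to 79.2 to 91.7 CPM in control, 67.7 to 82.4 in CDKN1A, 70.0 to 94.5 in KDM1A and 55.4 to 75.0 in SPP1, where they did not overlap control. TEK fell by 0.39 on the log2 scale in the SPP1 group (edgeR adjusted p = 0.0179), and its part in the SPP1 results was not tested. Leukocyte markers summed to 50.7 to 73.0 CPM, nearly all CD68, with CD3E at 0 in the control, CDKN1A and KDM1A groups.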

How the data were processed

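Bulk RNA-seq of 18 libraries was deposited as 1 table per sample with estimated counts, TPM and effective length for 188753 transcripts. Per the submitters' processing notes the authors used kallisto on GRCh38 (hg38); the sources used here do not give its version. Estimated counts made by the authors were summed per gene through GENCODE release 29, to which 169797 transcript IDs (90%) matched; the unmatched ones held 2.49 to 2.62% of counts and were left out. The deposited TPM values were summed the same way and used for levels between genes, and the deposited effective lengths entered 1 alternative as an offset. Sums were rounded and tested with edgeR 4.0.16 (R 4.3.3): TMM, genes kept by filterByExpr with a count minimum of 10, quasi-likelihood F tests on all 18 libraries with 1 coefficient per group (or per guide for guide contrasts), Benjamini-Hochberg adjustment over 13527 genes and a threshold of 0.05. CPM values are scaled by TMM factors, and 95% intervals are log2 values plus or minus the normal quantile times the SE. Counts were also simulated for 13527 genes from their mean levels over all 18 libraries, with 1 spread shared by all genes. Of 50 genes raised 1.5-fold in the KDM1A group 74% were recovered, and of 50 raised 2-fold 96%, and 15 unchanged genes were called. Falls were simulated only at 3-fold and 4-fold, so recovery of smaller falls, or with a spread per gene, is not known.

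The members, gene lists and rules were chosen with earlier results of these data known. All members were named in every comparison with control. In other comparisons those called were named, with EPGN and single others given beside them. Transcripts with at least 5% of a member's counts, the 5 genes with a profile closest to EPGN, the tested genes within 1000 kb of its start, and called genes of the pathway lists were named. Alternatives were DESeq2 1.42.0, RLE size factors, no filter, the length offset, a replicate block, 1 coefficient per guide, only the groups compared, and leaving out each guide and each library. Replicate numbers did not pair the libraries: over 36 pairs of guides the correlation of deviations ran from -0.12 to 0.07. Promoter sequences are from RefSeq and were searched for the spelled motifs, and those of EPGN, EREG and AREG are printed.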

Additional observations from a re-analysis of the deposited data

Results flagged for a closer look

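The 2 KDM1A guides differed from each other in 4 members by the edgeR quasi-likelihood test with Benjamini-Hochberg adjustment over all genes, where 6.15% of all genes were called. Guide 3 minus guide 2, the log2 difference was -0.43 for NRG1 (adjusted p = 0.0197), 0.35 for EGFR (0.0231), 0.55 for ERBB2 (0.00718) and -1.16 for ERBB3 (0.0458). The count became 0 with the length offset and 0 to 2 leaving out single libraries. Each guide had 2 libraries, and the guides did not overlap in any of the 8 tested members, called or not. The CDKN1A guides, also with 2 libraries each, did not overlap in any of the 8 either, and no member was called between them. The control guides, of the same design, overlapped in ERBB3 alone. The share of all genes without overlap was not counted, so the lack of overlap is no result about the members. No library stood apart from the rest of its group in 32 checks of 8 members in 4 groups.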

How the results depend on the processing

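The number of members called moved by over 1.5 times in the following cases. For CDKN1A against control (0) it was 1 with DESeq2, 1 without the filter, 2 with 1 coefficient per guide, 2 with only the groups compared, and 0 to 1 leaving out single libraries. For KDM1A against control (3) it was 5 with DESeq2, 5 with 1 coefficient per guide, 7 without KDM1A guide 3, and 2 to 5 leaving out single libraries. The filter on low counts was applied anew in fits on fewer libraries, so the members counted can differ. HBEGF was not called without KDM1A guide 3 (edgeR adjusted p = 0.766). That count of 7 therefore holds a member outside the 7 tested in the main fit and is not comparable with 3. For SPP1 against control (2) it was 1 with the length offset, the replicate block, only the groups compared, or without control guide 2, SPP1 guide 1 or SPP1 guide 2, 0 without control guide 1, and 1 to 2 leaving out single libraries. For CDKN1A against KDM1A (3) it was 1 without KDM1A guide 2 and 6 without KDM1A guide 3. For CDKN1A against SPP1 (1) it was 2 with DESeq2, 1 coefficient per guide, only the groups compared, or without SPP1 guide 2, 0 without CDKN1A guide 1, and 1 to 2 leaving out single libraries. For KDM1A against SPP1 (5) it was 1 without KDM1A guide 2. Between KDM1A guides (4) it was 0 with the length offset and 0 to 2 leaving out single libraries, between SPP1 guides (0) it was 0 to 1 leaving out single libraries, and without the filter it was 2 between CDKN1A guides and 1 between control guides. Signs turned only where log2 values were near 0 and not called. HBEGF in CDKN1A (-0.01) was 0.04 with the length offset, 0.14 without control guide 2, 0.21 without CDKN1A guide 2 and -0.09 to 0.07 leaving out single libraries. HBEGF in KDM1A (-0.04) was 0.11 without control guide 2, 0.07 without KDM1A guide 2 and -0.08 to 0.03 leaving out single libraries, and HBEGF in SPP1 (0.11) was -0.01 without control guide 1. EGFR was -0.03 in CDKN1A without control guide 1 and 0.03 in KDM1A without KDM1A guide 2, and EPGN between KDM1A guides was -0.01 with the length offset. The cause of these shifts was not tested. The replicate block ended the EREG call in SPP1 against control (adjusted p = 0.0601) and changed no other call of a named member. Counts of pathway lists, recomputed under the same settings as an addition after seeing the data, moved by over 1.5 times in 65 cases and not in 235. At 0 to 13 counts per library, BTC and TGFA set the limit of depth.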
